A study of Mus musculus with 3 samples.

Results

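The muscle microRNAs miR-1a-3p, miR-133a-3p, miR-133a-5p, miR-133b-3p and miR-206-3p were followed in small RNA libraries of the mouse heart in the weeks after birth, on days 1, 7 and 28 (named P1, P7 and P28). These 5 miRNAs were chosen by their miRBase accession numbers (MIMAT0000123, MIMAT0000145, MIMAT0003473, MIMAT0000769 and MIMAT0000239). The rule itself uses no measured value, but the group was proposed with earlier results of these data known. They are 5 of the 1900 mature accessions in the count table and occupy 8 of its 2049 rows. Each age had 1 library. The hearts came from C57BL/6 animals of wild-type genotype, and the labels name no treatment. The study text speaks of cardiac ventricles, and the number of hearts in a library is not given in the sources used here. The counts of all rows summed to 1944237 in the P1 library, 2465680 in the P7 library and 2842526 in the P28 library. These counts are called reads below, and levels are given as CPM, the share of the sum multiplied by 1000000. The sum includes 14 stem-loop rows and 12 pairs of rows of different mature accessions with counts within 1% of each other. A read may therefore enter the sum more than once.

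MicroRNAs are short noncoding RNAs that pair with messenger RNAs, mainly through the seed near their 5′ end, and lower the output of those messenger RNAs. The miR-1 and miR-133 families are transcribed together from shared precursors in heart and skeletal muscle, where serum response factor and MEF2 drive their expression. miR-1 is known for promoting muscle differentiation and for restraining growth of the developing heart. miR-133a is known for its effects on the proliferation and on the gene program of cardiomyocytes. miR-206 carries the same seed as miR-1 and is known mainly from skeletal muscle, where it is made from the same locus as miR-133b. A hairpin precursor gives a 5p and a 3p arm, and the 3p arm is the main product of miR-1, miR-133 and miR-206.

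RefSeq sequences (GRCm38.p6, the assembly that mm10 also denotes) were matched by name for 2 of the 5 miRNAs, miR-133b-3p and miR-206-3p. They are shown because each belongs to a different seed group, that of miR-133 and that of miR-1. Both hairpins lie on the plus strand of chromosome 1, with 3686 bases between them. Mir206 (chr1:20679010-20679082) and Mir133b (chr1:20682769-20682887) overlap the long noncoding RNA gene Gm28653 in GENCODE M21. The Mir133b hairpin lies within an exon of that gene and the Mir206 hairpin partly within one. The mature 3p strands have 22 bases each, at chr1:20679055-20679076 and chr1:20682834-20682855. The 5p strand of each hairpin, at chr1:20679017-20679039 and chr1:20682797-20682818, is printed for comparison of the arms. Sequences run 5′ to 3′ and capitals mark the seed, bases 2 to 8.
miR-206-3p: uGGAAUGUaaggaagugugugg
miR-206-5p: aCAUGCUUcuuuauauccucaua
miR-133b-3p: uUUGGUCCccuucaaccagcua
miR-133b-5p: gCUGGUCAaacggaaccaaguc

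miR-1a-3p was the most abundant mature accession at every age. It had 836603 reads in the P1 library, 1051042 in the P7 library and 1288139 in the P28 library. It thus made up 43.0% of P1 (95% Wilson interval 43.0 to 43.1), 42.6% of P7 (42.6 to 42.7) and 45.3% of P28 (45.3 to 45.4). By library totals the level therefore differed by less than 1.1-fold between any 2 ages. With TMM or DESeq2 factors, which rescale the libraries toward their typical accession, the highest age exceeded the lowest by 1.63-fold or 1.74-fold. All intervals cover counting error only, since 1 library per age gives no spread between hearts and reads copied from the same molecule cannot be told apart. For the same reason no test between ages could be made, and in whole hearts fewer cells of a type and less RNA per cell cannot be told apart.

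miR-133a-3p, made from the same primary transcripts as miR-1a, was far less represented. P1 hearts gave 4640 CPM from 9021 reads (95% Wilson interval 4545 to 4736), P7 hearts 6713 CPM from 16552 reads (6612 to 6816) and P28 hearts 6787 CPM from 19291 reads (6692 to 6883). By library totals the P1 library was the low one, and P7 and P28 had overlapping intervals. With TMM or DESeq2 factors, however, the log2 ratio of P28 to P7 was 0.60 or 0.73. Among all mature accessions its rank moved from 23 at P1 to 18 at P7 and 15 at P28.

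Between P1 and P7 the 5p arm of miR-133a took the opposite course. P1 hearts gave 2679 CPM from 5209 reads (95% Wilson interval 2608 to 2753), P7 hearts 1662 CPM from 4099 reads (1612 to 1714) and P28 hearts 1609 CPM from 4574 reads (1563 to 1656). Here P1 was the high library by library totals, and P7 and P28 again had overlapping intervals. With TMM or DESeq2 factors, however, the log2 ratio of P28 to P1 was only -0.11 or -0.04, and that of P28 to P7 was 0.54 or 0.67. Its rank went from 29 to 40 between P1 and P7 and was 33 at P28.

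miR-133b-3p, the chromosome 1 relative of miR-133a-3p, was scarce. P1 hearts gave 41.7 CPM from 81 reads (95% Wilson interval 33.5 to 51.8), P7 hearts 67.3 CPM from 166 reads (57.8 to 78.4) and P28 hearts 51.4 CPM from 146 reads (43.7 to 60.4). By library totals the interval at P7 lay above that at P1, whereas the interval at P28 overlapped both. With TMM or DESeq2 factors the log2 ratio of P28 to P1 was 0.93 or 0.99. Since miR-133a-3p and miR-133b-3p are nearly identical in sequence and the treatment of reads that fit several places is not stated, the division of reads between them is uncertain.

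miR-206-3p, the skeletal muscle relative of miR-1a-3p, was the lowest of the group at every age. P1 hearts gave 31.9 CPM from 62 reads (95% Wilson interval 24.9 to 40.9), P7 hearts 23.1 CPM from 57 reads (17.8 to 29.9) and P28 hearts 31.3 CPM from 89 reads (25.4 to 38.5). These 3 intervals overlapped, so by library totals no difference between the libraries was detectable at this depth. With TMM or DESeq2 factors, however, the log2 ratio of P28 to P7 was 1.02 or 1.15. All values were well above the 1.54, 1.22 and 1.06 CPM to which 3 reads correspond at P1, P7 and P28. This floor does not measure reads misassigned from the far more abundant miR-1a-3p.

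The order of the 5 levels was the same at each age, namely miR-1a-3p, miR-133a-3p, miR-133a-5p, miR-133b-3p and miR-206-3p. Neighbours in this order had separate intervals at every age, with the exception of miR-133b-3p and miR-206-3p at P1, whose intervals overlapped. Together the 5 miRNAs accounted for 43.8% of P1 reads (95% Wilson interval 43.7 to 43.8), 43.5% of P7 reads (43.4 to 43.5) and 46.2% of P28 reads (46.1 to 46.2). miR-1a-3p supplied 98.3%, 98.1% and 98.2% of these reads. The other 4 miRNAs added up to 0.739% of P1 reads (0.727 to 0.751), 0.847% of P7 reads (0.835 to 0.858) and 0.848% of P28 reads (0.837 to 0.859). The plot of levels by age shows that the group spans about 4 orders of magnitude.

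**Figure D1:**
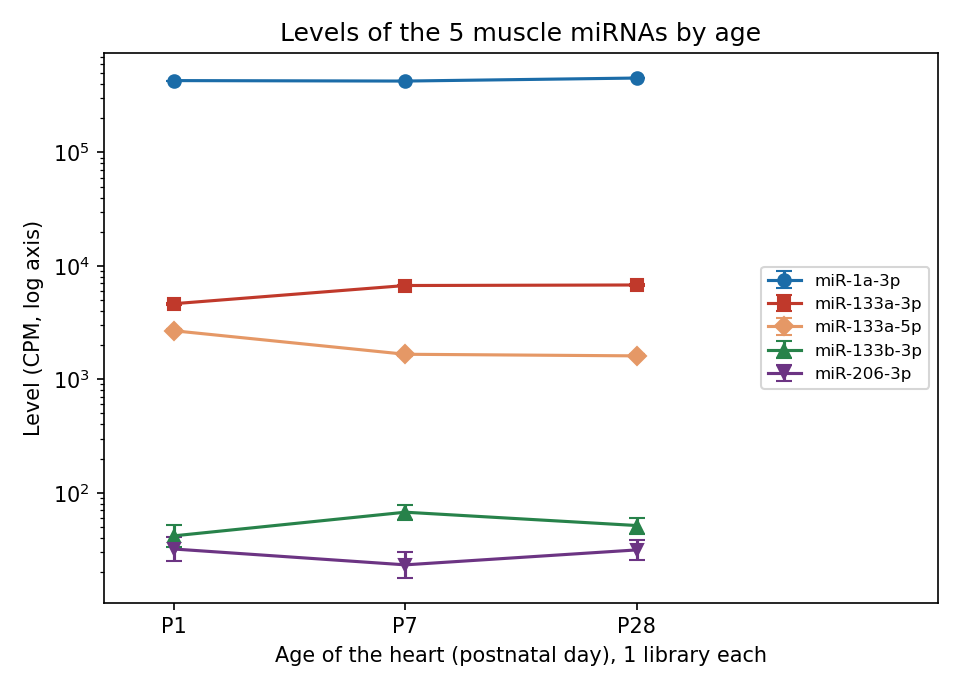
Level of each of the 5 miRNAs in CPM on a log axis, in the P1, P7 and P28 heart libraries (1 library per age, ages drawn at equal steps). Bars are 95% Wilson intervals for counting error, hidden by the symbol where narrow. miR-1a-3p stayed between 426269 and 453167 CPM, miR-133a-3p and miR-133a-5p moved apart after P1, and miR-133b-3p and miR-206-3p stayed at or under 67.3 CPM.

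The comparison of P7 with P1 asked which miRNAs differ across the first postnatal week, when cardiomyocytes begin to leave the cell cycle. Ratios were taken on the log2 scale with 0.5 reads added to each count, with 95% Clopper-Pearson intervals of the read ratio. miR-133a-3p was higher at P7 by 0.53 (0.50 to 0.57), which is 1.45-fold, and miR-133b-3p by 0.69 (0.30 to 1.09). miR-133a-5p had a log2 ratio of -0.69 (-0.75 to -0.63). miR-1a-3p stood at -0.01 (-0.02 to -0.01), and miR-206-3p at -0.46 with an interval that included 0 (-1.01 to 0.08). None of the 5 reached 2-fold in either direction. The background was formed by the 279 mature accessions that averaged 10 CPM or more, all 5 miRNAs included. Of these, 22.6% differed at least 2-fold between the libraries, with 11.1% higher and 11.5% lower at P7. The median log2 ratio was -0.01 over the 5 and 0.03 over the 279. Some of the 279 accessions repeat the ratios of another, so shares and medians over them may count some reads more than once.

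Between P7 and P28 the abundant members differed little by library totals. miR-1a-3p had a log2 ratio of 0.09 at P28 against P7 (0.08 to 0.09), miR-133a-3p of 0.02 (-0.01 to 0.05) and miR-133a-5p of -0.05 (-0.11 to 0.01). The ratio of miR-133b-3p was -0.39 (-0.72 to -0.06), and that of miR-206-3p was 0.43 (-0.06 to 0.94). Again 0 of 5 reached 2-fold, while 45.5% of the 279 accessions did, with 2.87% higher and 42.7% lower at P28. The median was 0.02 over the 5 miRNAs and -0.79 over the 279. These ratios depended on scaling by library totals. Another scaling adds the same amount to every ratio, so it cannot change the distance between the medians. TMM factors raised every ratio of this comparison by 0.59, and DESeq2 size factors raised it by 0.71. The median over the 279 was then -0.20 and -0.07. miR-1a-3p then stood at 0.68 and 0.80, and miR-206-3p passed 2-fold at 1.02 and 1.15. Under these scalings 34.8% and 34.4% of the 279 accessions did so.

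Over the whole period from P1 to P28, and again by library totals, miR-133a-3p was 1.46-fold higher, with a log2 ratio of 0.55 (95% Clopper-Pearson interval 0.51 to 0.58). miR-133a-5p had a ratio of -0.74 (-0.79 to -0.68). miR-1a-3p was at 0.07 (0.07 to 0.08). The intervals of miR-133b-3p, at 0.30 (-0.10 to 0.71), and of miR-206-3p, at -0.03 (-0.51 to 0.47), included 0. No member reached 2-fold, against 56.3% of the 279 accessions, with 13.6% higher and 42.7% lower at P28. The median was 0.07 over the 5 miRNAs and -0.74 over all tested, so that miR-133a-5p, despite its lower level at P28, was itself the middle accession of the 279. TMM factors raised every ratio here by 0.63 and DESeq2 size factors by 0.69. miR-1a-3p then stood at 0.70 and 0.77, and miR-133a-5p at -0.11 and -0.04. miR-133a-3p passed 2-fold under both, at 1.18 and 1.24, and it reached 1.04 when the 10 most abundant rows were left out of the totals. Of the 279 accessions, 53.4% passed 2-fold under TMM, 54.5% under DESeq2 and 52.3% without those rows.

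**Figure D2:**
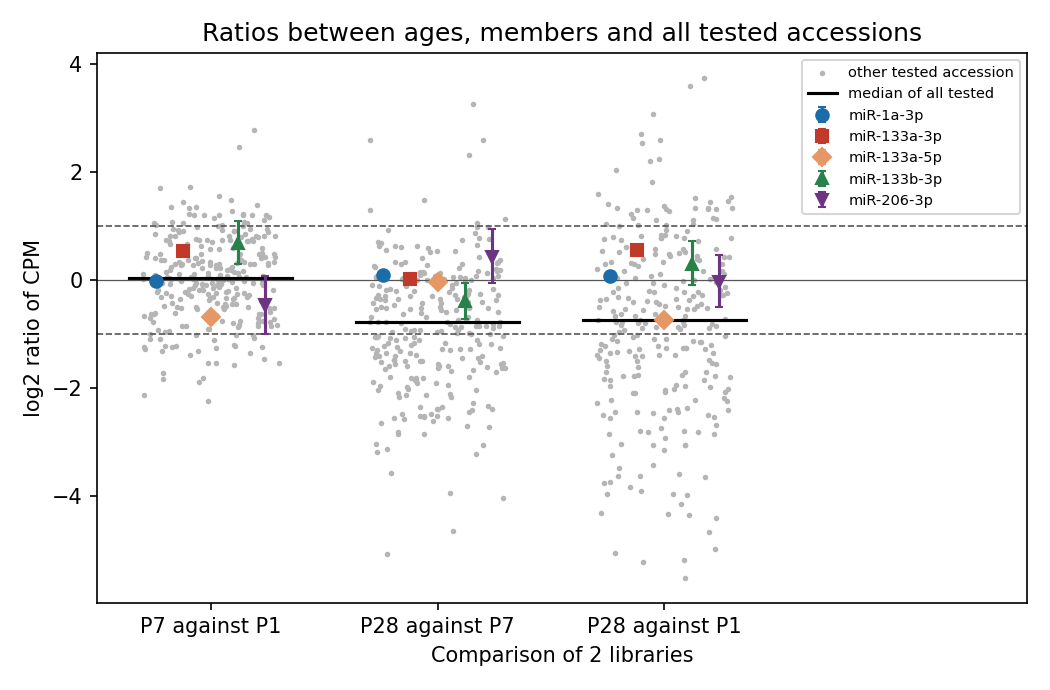
log2 ratio of CPM between 2 libraries for the 279 mature accessions that averaged 10 CPM or more (grey points, spread sideways at random), with the 5 miRNAs as coloured symbols with 95% Clopper-Pearson intervals for counting error. Solid bars mark the median of all tested and dashed lines mark 2-fold. Scaled by library totals, all 5 miRNAs lie between the dashed lines in each comparison, while the median of all tested lies at -0.79 and -0.74 in the comparisons of P28 with P7 and P1.

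By library totals, the highest level over the 3 ages exceeded the lowest by 1.06-fold for miR-1a-3p, 1.38-fold for miR-206-3p, 1.46-fold for miR-133a-3p, 1.61-fold for miR-133b-3p and 1.66-fold for miR-133a-5p. The median range of the 279 accessions was 2.51-fold. Of these accessions, 1.08% had a smaller range than miR-1a-3p and 20.4% a smaller one than miR-133a-5p. These positions depended on the scaling. miR-1a-3p also made up 42.6% to 45.3% of the totals by which it was divided, which limits how far its CPM can rise. The range of miR-1a-3p was 1.63-fold under TMM and 1.74-fold under DESeq2, with 23.7% and 28.3% of the accessions below it. That of miR-133a-3p was 2.26-fold and 2.36-fold, with 48.4% and 50.9% below it, against medians of 2.30-fold and 2.29-fold over the 279. Likeness of course was measured as the largest difference, over the 3 ages, between centred log2 CPM values. Among 130 other accessions that averaged 100 CPM or more, 10 followed miR-1a-3p within 0.2 and 7 followed miR-133a-3p within 0.2. The table pairs no accession with a name, so these are given as counts.

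Ratios of reads between members of the same library need no scaling between ages. There was 1 read of miR-133a-3p for 92.7 reads of miR-1a-3p in P1 hearts (95% Clopper-Pearson interval 90.8 to 94.7), for 63.5 in P7 hearts (62.5 to 64.5) and for 66.8 in P28 hearts (65.8 to 67.7). On the log2 scale the ratio of miR-133a-3p to miR-1a-3p was thus 0.55 higher at P7 than at P1 (95% normal interval for counting error 0.51 to 0.58). From P7 to P28 it changed by -0.07 (-0.10 to -0.04). These are ratios of reads and not of molecules.

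The arms of miR-133a showed the largest shift among these ratios. There were 1.73 reads of the 3p arm for each read of the 5p arm in P1 hearts (95% Clopper-Pearson interval 1.67 to 1.79), 4.04 in P7 hearts (3.90 to 4.18) and 4.22 in P28 hearts (4.08 to 4.36). Of the reads of both arms, the 5p arm had 36.6% in P1, 19.8% in P7 and 19.2% in P28 hearts. The log2 ratio of 5p to 3p changed by -1.22 from P1 to P7 (-1.29 to -1.15) and by -0.06 from P7 to P28 (-0.13 to 0.01). Summed, the arms had 7319 CPM in P1, 8375 CPM in P7 and 8396 CPM in P28 hearts.

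The ratios of the scarce relatives had wide intervals. There were 111 reads of miR-133a-3p for each read of miR-133b-3p in P1 hearts (95% Clopper-Pearson interval 89.5 to 140), 99.4 in P7 hearts (85.6 to 117) and 132 in P28 hearts (112 to 157). These 3 intervals overlapped, although the change in log2 ratio from P7 to P28, at -0.41, had an interval below 0 (-0.73 to -0.08). For miR-206-3p there were 13386 reads of miR-1a-3p to each read in P1 hearts (10526 to 17600), 18279 in P7 hearts (14232 to 24346) and 14393 in P28 hearts (11761 to 18023), with overlapping intervals. The skeletal muscle miRNA was thus counted at a very small fraction of the level of its seed relative in every heart library. Whether misassigned reads of miR-1a-3p contributed to its count was not tested.

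**Figure D3:**
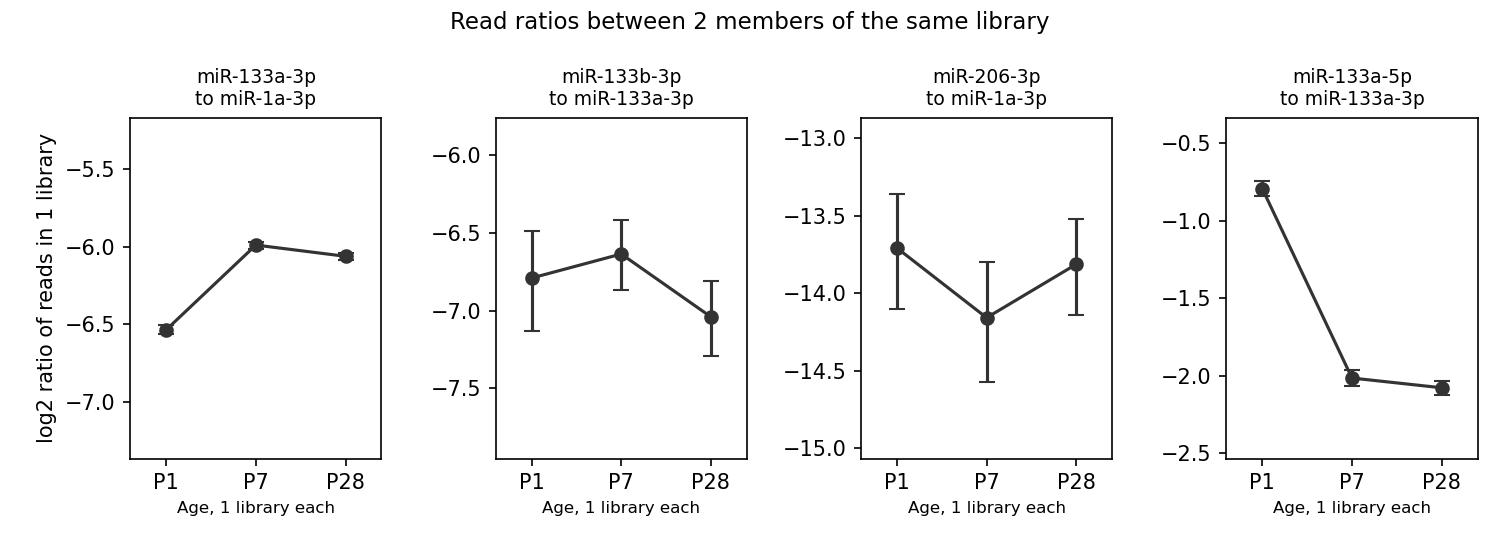
log2 ratio of reads between 2 miRNAs of the same library, by age (1 library each), in 4 panels of equal height on the log2 scale. Bars are 95% Clopper-Pearson intervals for counting error. The ratio of miR-133a-5p to miR-133a-3p went from -0.79 at P1 to -2.01 at P7 and -2.08 at P28, and that of miR-133a-3p to miR-1a-3p from -6.54 to -5.99 and -6.06.

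miR-1a-3p, miR-133a-3p and miR-133a-5p each had 2 rows in the count table, whereas miR-133b-3p and miR-206-3p had 1. Further rows of an accession stand for further genomic copies of the mature sequence. RefSeq lists such copies in 2 clusters, both of which hold a miR-1a and a miR-133a hairpin. On chromosome 2, Mir1a-1 (chr2:180389048-180389124) and Mir133a-2 (chr2:180398379-180398482) lie 9254 bases apart on the plus strand. On chromosome 18, Mir133a-1 (chr18:10782909-10782976) and Mir1a-2 (chr18:10785481-10785552) lie 2504 bases apart on the minus strand. GENCODE M21 places the latter pair within introns of the protein-coding gene Mib1 and of the antisense RNA Mir133a-1hg. The table does not say which row belongs to which cluster, and no assignment was made. A read of the mature sequence fits each copy, and the treatment of reads that fit several places is not stated. The division of reads between the rows is therefore uncertain.

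In all 3 accessions the first row held the smaller part of the reads, its part was lowest at P7 and it was highest at P28. For miR-1a-3p the P7 library had 10.7% (95% Wilson interval 10.7 to 10.8), against 18.0% in the P1 library (17.9 to 18.0) and 21.1% in the P28 library (21.0 to 21.1). For miR-133a-3p the P7 library had 16.6% (16.1 to 17.2), against 24.3% in the P1 library (23.5 to 25.2) and 27.1% in the P28 library (26.5 to 27.7). For miR-133a-5p the P7 library had 10.1% (9.24 to 11.1), against 12.0% in the P1 library (11.1 to 12.9) and 17.6% in the P28 library (16.6 to 18.8).

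The rows of an accession therefore differed in their course after P7, here given by library totals. For miR-1a-3p, the first row had 45796 CPM at P7 and 95400 CPM at P28, a log2 ratio of 1.06 (95% Clopper-Pearson interval 1.05 to 1.07). The second row went from 380473 to 357767 CPM, a ratio of -0.09 (-0.09 to -0.08). The rows of miR-133a-3p stood at 0.72 (0.65 to 0.79) and -0.18 (-0.21 to -0.14), and those of miR-133a-5p at 0.75 (0.58 to 0.93) and -0.17 (-0.24 to -0.11). In each case the first row was higher and the second row lower at P28 than at P7. The small ratios of the summed accessions thus combine rows of opposite direction. These are courses of rows and not of genomic copies, since reads that fit both copies may have been placed in either row. TMM and DESeq2 factors, which add 0.59 and 0.71 to each of these ratios, place the second rows above 0 as well and leave the distance between rows as it is. Between P1 and P7 the ratio of the second row exceeded that of the first in all 3 accessions, with 0.11 against -0.75 for miR-1a-3p, 0.67 against -0.02 for miR-133a-3p and -0.66 against -0.93 for miR-133a-5p.

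**Figure D4:**
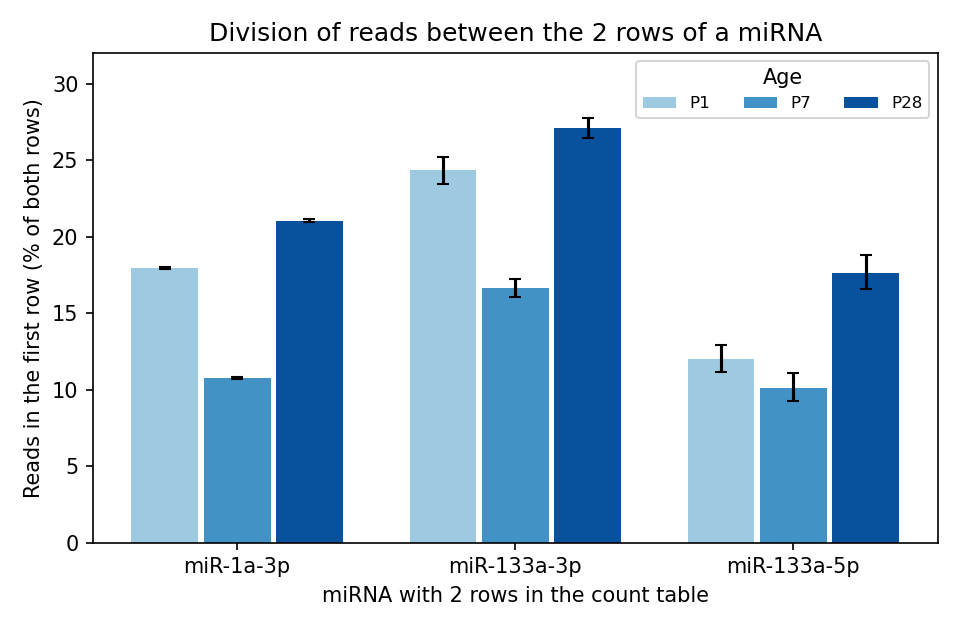
Reads in the first of the 2 rows of miR-1a-3p, miR-133a-3p and miR-133a-5p, as a percentage of the reads in both rows, at P1, P7 and P28 (1 library per age). Bars carry 95% Wilson intervals for counting error. How reads that fit both copies were divided between the rows is not stated. In each miRNA the P7 library has the lowest value and the P28 library the highest, with 10.7% and 21.1% for miR-1a-3p.

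The first row of miR-1a-3p had the same count as the only row of another accession, MIMAT0005835, in all 3 libraries, with 150261 reads in P1, 112918 in P7 and 271177 in P28 hearts. That other row took 7.73%, 4.58% and 9.54% of the libraries. It was the only row of another accession that came within 1% of a member row in every library, with 7 of the 8 member rows having the 300 reads set as a minimum for this search. In RefSeq, the hairpin of Mir1b (chr18:10785446-10785567) lies on the plus strand and covers all 72 bases of Mir1a-2. The files do not name MIMAT0005835, and whether strand was used in counting is not stated. Reads of a gene and of its antisense partner cannot be told apart in that case. In an alternative, stem-loop rows and the later accession's row of each matching pair were left out, so the shared counts stayed with miR-1a-3p. The 5 miRNAs then accounted for 52.2% of the remaining P1 reads, 50.1% of those of P7 and 55.3% of those of P28.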

How the data were processed

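Small RNA libraries from P1, P7 and P28 hearts (1 each) had been made with a NEBNext small RNA kit. The submitters' processing notes name bcl2fastq, TopHat and mm10. The study gives TopHat2 alignment and counting with Bioconductor packages for its RNA sequencing in general. The miRBase release, the use of strand and the treatment of multiply aligned reads are not given in the sources used here. The deposited table holds raw counts per row, made by the authors without normalization. Each column was assigned to its age by the prefix of its name.

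Rows were summed per accession and divided by the column total over all rows. The miRNA names of the 5 accessions came with the rule by which they were selected, and members and lists were chosen with earlier results of these data known. Named miRNAs fixed as other arms, relatives and cell type markers (cardiomyocyte, endothelial, smooth muscle, erythroid, leukocyte, brain and liver) could not be found, because the table gives no names, and their levels are not given. Mature accessions averaging 10 CPM or more were compared, and all 5 miRNAs passed. A difference was counted from 2-fold. The edgeR quasi-likelihood test needs replicates and was not run. The ratio code was tested on simulated data. Alternatives were TMM factors (edgeR 4.0.16), DESeq2 1.42.0 size factors, other totals, a pseudocount of 5 reads and the most abundant row of an accession. Others were the removal of stem-loop rows and of the later accession's row of each matching pair, and other filters and folds. Coordinates and sequences came from RefSeq GRCm38.p6, and strands and overlapping genes from GENCODE M21. Software was Python 3.11.15 with scipy 1.17.1, numpy 2.4.6 and pandas 2.3.3, and R 4.3.3.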

Additional observations from a re-analysis of the deposited data

How the results depend on the processing

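Depth limited miR-206-3p and miR-133b-3p, with 57 to 166 reads per library, and the single library per age limited all comparisons. Of 105 log2 ratios of the 5 miRNAs under alternatives, 51 stayed within the counting interval and 54 did not. The width of that interval follows the number of reads, so this count is not a measure of stability. Small shifts took miR-1a-3p out of its narrow interval, whereas miR-206-3p stayed within its wide one after larger shifts. The most abundant row setting could not change miR-133b-3p and miR-206-3p, which have 1 row each. Both arms of miR-133a kept their direction against P1 in all 8 settings (library totals and 7 alternatives), with miR-133a-3p at 0.48 to 0.68 for P7 and 0.49 to 1.24 for P28, and miR-133a-5p at -0.74 to -0.54 and -0.83 to -0.04. Ratios of both signs were found for miR-1a-3p at P7 against P1 (-0.07 to 0.13), for miR-206-3p at P28 against P1 (-0.06 to 0.66) and, at P28 against P7, for miR-1a-3p (-0.09 to 0.80), miR-133a-3p (-0.18 to 0.73), miR-133a-5p (-0.17 to 0.67) and miR-133b-3p (-0.39 to 0.32).

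The number of members past 2-fold became 1 at P28 against P7 under TMM and DESeq2 (miR-206-3p), and 1 at P28 against P1 under TMM, DESeq2 and the total without the 10 most abundant rows (miR-133a-3p). Of the 279 accessions, 97 and 96 passed 2-fold at P28 against P7 under TMM and DESeq2, and 149, 152 and 146 at P28 against P1 under the 3 settings. The count of 146 and the ranges under other scalings were added after the data were seen. The cause was not tested beyond the uniform shift that these scalings apply. Without stem-loop rows and later rows of matching pairs, the members' percentage of the reads was 52.2, 50.1 and 55.3 at P1, P7 and P28. With the most abundant row only it was 35.9, 38.8 and 36.4, and P7 became the highest age. The most abundant rows gave log2 ratios of miR-133a-3p to miR-1a-3p of -6.65, -6.09 and -6.18.

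The numbers of accessions past 2-fold changed with the filter and the fold. A filter also sets how many accessions are compared, and shares under the other filters were not computed. These numbers therefore do not show whether the share past 2-fold depends on the filter. For P7 against P1, P28 against P7 and P28 against P1 they were 138, 243 and 287 from 1 CPM, 31, 46 and 65 from 100 CPM, 396, 469 and 529 with no filter, and 4, 48 and 73 at 4-fold. At 1.5-fold, P7 against P1 gave 135. The share of calls that were higher was 6.30% at P28 against P7 when scaled by totals, 30.9% with TMM and 39.6% with DESeq2, and 24.2%, 46.3% and 47.4% at P28 against P1. No paired analysis was possible because there was 1 library for each age, which also left no replicate to leave out.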
